A study of Mus musculus with 2 samples.

Results

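The 10 genes Atf4, Atf5, Ddit3, Trib3, Chac1, Sesn2, Asns, Psat1, Phgdh and Shmt2 belong to the transcriptional response to amino acid shortage. They were described here in single liver cells of 2 mice. They were found by symbol among 32285 listed genes, where the 10 symbols match 11 entries because Ddit3 is listed 2 times, with 0 UMIs in its second entry. A UMI is a molecular identifier that lets all PCR copies of a transcript count once. Levels were read in barcodes that held 500 UMIs or more, 200 genes or more and no more than 20% mitochondrial UMIs. That kept 662 of 1366 barcodes of the GS-KO library and 3275 of 5074 of the control library.

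The GS-KO library came from 1 tumour-bearing Glul f/f mouse given AAV8-Cre, and the control library from 1 tumour-bearing Glul f/f mouse given AAV8-GFP, both taken 7 weeks after the virus. The study's title places them in β-catenin-mutant liver cancer. Glul encodes glutamine synthetase (GS), which makes glutamine from glutamate and ammonia, and Cre removes its floxed segment. AAV8 delivers genes mainly to hepatocytes, so other liver cells of the GS-KO mouse need not carry the deletion. Cells were taken from the supernatant of the first spin after collagenase perfusion, enriched with beads for F4/80, a macrophage surface protein, and passed through dead cell removal. Hepatocytes in such a preparation are those the enrichment let through, and the labels do not tell tumour cells from other hepatocytes. Each group is 1 mouse, so no test of a group difference exists, and every interval below is a 95% interval for counting error alone.

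When an amino acid runs short, uncharged tRNA activates the kinase GCN2, which phosphorylates the translation factor eIF2α. Translation of most mRNAs then slows, while the mRNA of ATF4 is translated more. ATF4 pairs with C/EBP proteins and other basic leucine zipper factors on composite C/EBP-ATF elements near genes of amino acid synthesis, transport and tRNA charging. Because ATF4 is controlled at translation, the level of its mRNA is not a direct reading of the pathway, and its target genes are usually read beside it.

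The C/EBP-ATF element was searched as TGATGNAA on both strands of the RefSeq promoter windows on GRCm38.p6, 250 bases before to 50 after each start. It was present in 1304 of 32851 windows, or 3.97%, and at 3 of the 10 genes, Asns, Trib3 and Chac1. These stretches are shown because they hold a match to this element, and the match is in capitals. The RefSeq starts of these 3 genes differ from their GENCODE starts, on which the gene positions given with each gene rest, so each match is placed by both. In Asns (chr6:7693214-7693243, minus strand) the match lay 23 to 16 bases before the RefSeq start, which is base 23 to 30 of the GENCODE gene, and read TGATGAAA along the gene. In Trib3 (chr2:152344028-152344057, minus strand) it covered bases 15 to 22 after the RefSeq start, or 14 to 7 bases before the GENCODE start, as TTACATCA, which is TGATGTAA on the other strand. In Chac1 (chr2:119350992-119351228, plus strand) it lay 193 to 186 bases before the RefSeq start, or 180 to 173 before the GENCODE start, as TTGCATCA, which is TGATGCAA on the other strand. A match in these windows is a description and not evidence of binding.
Asns: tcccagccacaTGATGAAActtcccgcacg
Trib3: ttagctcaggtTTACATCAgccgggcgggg
Chac1: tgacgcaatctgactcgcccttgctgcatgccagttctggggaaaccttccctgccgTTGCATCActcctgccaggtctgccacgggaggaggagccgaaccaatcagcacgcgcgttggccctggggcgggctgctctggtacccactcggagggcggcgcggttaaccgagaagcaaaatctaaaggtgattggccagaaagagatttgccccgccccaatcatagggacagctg

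The genes with these matches were the 3 least counted. Kept cells held 98 Asns, 97 Trib3 and 47 Chac1 UMIs, against 3576 for Atf4, 2908 for Atf5, 2247 for Shmt2, 2031 for Ddit3, 449 for Sesn2, 402 for Phgdh and 228 for Psat1. For these 3 genes nearly every comparison between the libraries was therefore limited by depth.

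The libraries differed before any gene was compared. After 7 GS-KO and 24 control doublets were removed, 655 GS-KO and 3251 control cells remained, with a median of 4104 and 7320 UMIs. Mitochondrial genes exceeded the limit in 50.8% of GS-KO and 35.5% of control barcodes. No kept cell barcode was shared by the libraries. Glul stood at 102 CPM (UMIs of the gene per 1000000 UMIs summed over the cells of a group) in GS-KO cells of the main hepatocyte-like cluster, against 3353 CPM in control cells.

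Hepatocyte-like cells were identified by Alb, Apoa1, Cyp2e1 and other hepatocyte markers and fell into clusters 15 and 8. Among them, higher levels in the GS-KO library were found in cluster 15, while 0 of 3 measured genes passed 1.5-fold in cluster 8. Outside these cells, Atf5 and Atf4 were higher in the unnamed cluster 12. Asns and Phgdh were higher in the unnamed dividing cells of cluster 14, where a few cells held most of their UMIs. The 10 genes summed to 422 CPM in GS-KO and 227 CPM in control cells of cluster 14. Cluster 15 held 22 GS-KO and 326 control cells. Atf5 stood 3.54-fold and Atf4 2.46-fold higher in the GS-KO cells of cluster 15, and 7 of the 10 genes had the 20 UMIs over both libraries set as the minimum for a comparison. Of those 7, 6 were at least 1.5-fold higher and 0 lower in GS-KO cells, where 22.2% of all measured genes were higher and 31.1% lower by that fold. Those 7 include genes counted mostly in the control library, and the GS-KO counts behind Trib3, Sesn2 and Psat1 were only 4, 3 and 2 UMIs. The GS-KO cells were also much shallower, with a median of 7413.5 UMIs against 42248 in control cells.

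Among the transcription factors, Atf5 (chr7:44812256-44816658, minus strand, GRCm38) gave the best counted difference in cluster 15. It encodes a basic leucine zipper factor whose translation, like that of ATF4, is controlled through upstream reading frames, and which is known from mitochondrial stress. It had 122 UMIs in GS-KO cells, or 376 CPM (312 to 449), and 1773 UMIs in control cells, or 106 CPM (101 to 111), a ratio of 3.54 (2.93 to 4.26). A single GS-KO cell held 45.1% of the GS-KO UMIs, and the ratio was 2.56 without it. With every cell weighted equally the mean was 273 CPM in GS-KO and 108 CPM in control cells, and the median cell stood at 261 and 69.5 CPM. Without the deepest GS-KO cell, of 82324 UMIs, the summed ratio was 3.62. Atf5 was therefore higher in the GS-KO cells under each weighting, by 2.07-fold to 3.62-fold over the settings tried in cluster 15.

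Because depth differed, Atf5 was also read at matched depth. Among cells with 2000 to 40000 UMIs, 19 GS-KO and 158 control cells of cluster 15, it stood at 234 and 113 CPM, a ratio of 2.07 (1.43 to 2.92). After each cell was thinned to 1000 UMIs, 36.4% of GS-KO cells (17.2 to 59.3) and 8.90% of control cells (6.04 to 12.5) kept a UMI of it, while the unthinned shares were 72.7% and 76.4%. In B-like cells, which should lack it, 0 of 118 GS-KO and 0 of 455 control cells kept one, which allows shares of up to 2.54% and 0.659%. The unthinned shares in B-like cells were 0.833% and 2.56% at median depths of 3823 and 3667 UMIs. Control cells of cluster 15 stayed between 85.5 and 119 CPM in every depth range from 2000 UMIs up, and GS-KO cells between 167 and 705 CPM, with the highest value from 1 cell. The intervals of the 2 libraries overlapped at 2000 to 5000, 10000 to 20000 and 20000 to 40000 UMIs. Each range above 40000 UMIs held 1 GS-KO cell.

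**Figure D1:**
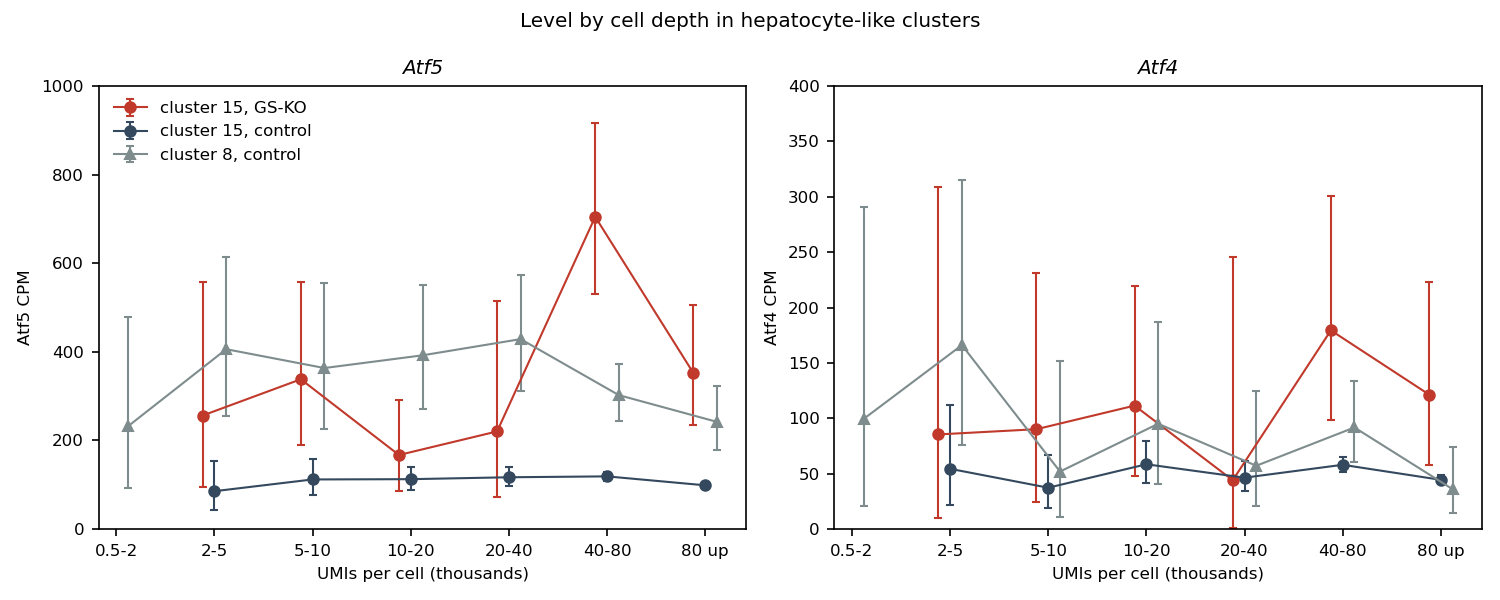
Level of Atf5 (left) and Atf4 (right) in CPM against the UMIs of the cell, for GS-KO cells of cluster 15 (red circles), control cells of cluster 15 (dark circles) and control cells of cluster 8 (grey triangles), with 95% Poisson intervals as bars. Ranges with few summed UMIs are left out. Atf5 in cluster 15 was at 167 to 705 CPM in GS-KO cells and 85.5 to 119 CPM in control cells at every depth drawn, and control cells of cluster 8 lay at 232 to 429 CPM.

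Atf4 (chr15:80255184-80257541, plus strand) encodes the central factor of the response. In cluster 15 it had 39 UMIs in GS-KO cells, or 120.2 CPM (85.5 to 164), and 815 in control cells, or 48.8 CPM (45.5 to 52.2), a ratio of 2.46 (1.74 to 3.40). Without the GS-KO cell that held most of its UMIs, which had 35.9% of them, the ratio was 2.08. At 2000 to 40000 UMIs it was 1.87 (1.01 to 3.22), from 15 GS-KO UMIs at 92.5 CPM and 108 control UMIs at 49.4 CPM. After thinning, 0 of 22 GS-KO cells kept a UMI, which allows a share of up to 13.6%, and 3.37% of 326 control cells did. That order goes against the CPM and none was read from it. Atf4 thus had a smaller and less well counted difference than Atf5.

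Ddit3 (chr10:127290774-127296288, plus strand) encodes CHOP, a C/EBP-family partner of ATF4 that is linked to prolonged stress. It had 13 UMIs in GS-KO cells of cluster 15, or 40.1 CPM, and 233 in control cells, or 13.9 CPM, a ratio of 2.87 (1.51 to 5.01). One GS-KO cell of 78042 UMIs held 76.9% of these UMIs, and without it the ratio was 0.873. The Ddit3 difference thus lay in that cell, and 4 of the 22 GS-KO cells had any UMI of the gene.

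The feedback and effector genes were sparse in the same cells. Trib3 (chr2:152337422-152344032, minus strand), a pseudokinase that binds ATF4 and restrains it, had 4 UMIs in 4 different GS-KO cells, or 12.3 CPM, and 36 UMIs in control cells, or 2.15 CPM, a ratio of 5.72 (1.48 to 15.97). Chac1 (chr2:119351229-119354381, plus strand), an enzyme that breaks down glutathione, had 2 UMIs in GS-KO cells and 5 in control cells, a ratio of 20.6 (1.96 to 126) on fewer UMIs than the minimum. Sesn2 (chr4:132492032-132510501, minus strand) encodes sestrin 2, a leucine sensor that restrains mTORC1, and had 3 UMIs in GS-KO cells, all in 1 cell, and 42 in control cells, a ratio of 3.68 (0.729 to 11.5). Of these 3 genes, Trib3 and Chac1 had intervals above 1, on a handful of molecules each.

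Among the enzymes, the product of Asns (chr6:7675169-7693254, minus strand) makes asparagine from aspartate with glutamine as the nitrogen donor. It had 1 UMI in the 22 GS-KO cells and 0 in the 326 control cells of cluster 15, where 0 allows up to 0.920% of cells with a UMI. Phgdh (chr3:98313170-98339990, minus strand), the first enzyme of serine synthesis, had 0 UMIs in GS-KO cells and 5 in control cells, and no fold can be given. Psat1 (chr19:15904678-15947337, minus strand), which carries out the next step with glutamate as the amino donor, had 2 and 21 UMIs, a ratio of 4.91 (0.558 to 20.1). Shmt2 (chr10:127517123-127522444, minus strand), the mitochondrial enzyme that turns serine into glycine and a one-carbon unit, was well counted, with 32 UMIs or 98.6 CPM in GS-KO cells and 1171 UMIs or 70.1 CPM in control cells. Its ratio was 1.41 (0.958 to 2.00) in summed UMIs and 2.09 (1.26 to 3.33) at 2000 to 40000 UMIs, so its call at 1.5-fold depends on how cells are weighted.

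**Figure D2:**
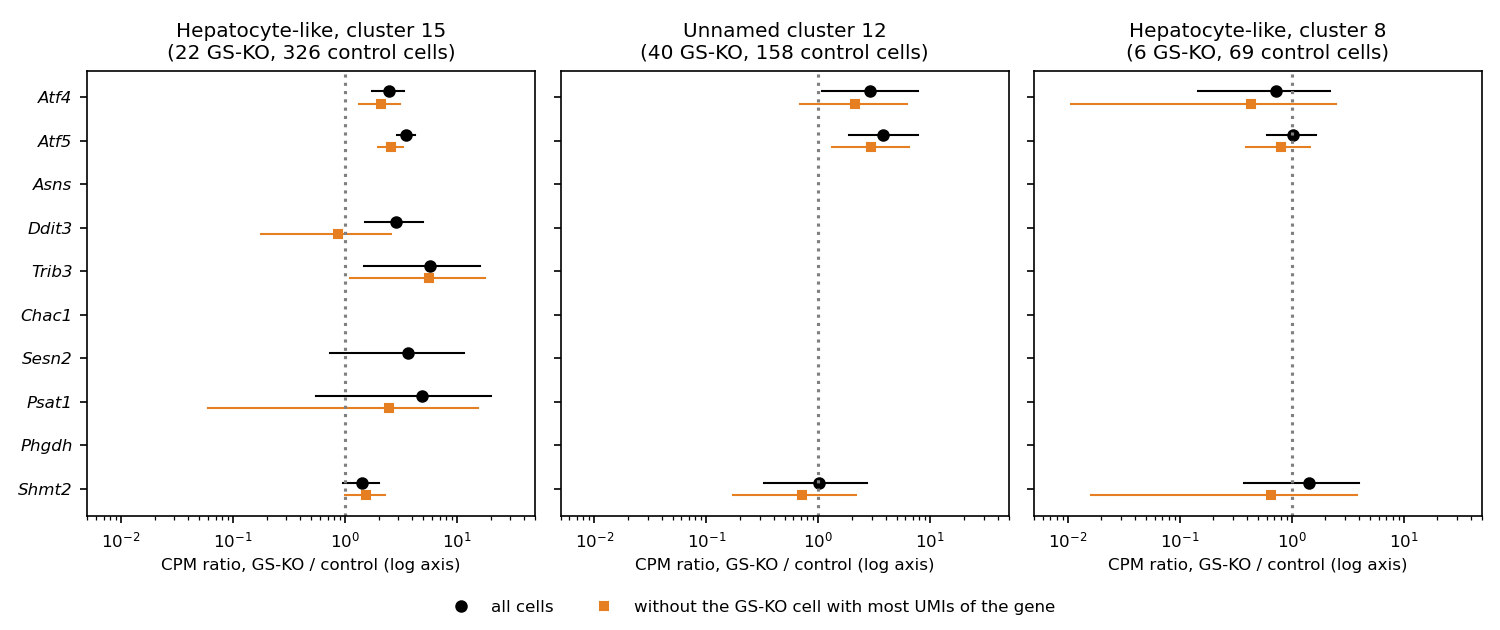
CPM ratio of GS-KO over control (log axis) for the measured genes in clusters 15, 12 and 8, over all cells (black circles) and without the GS-KO cell with most UMIs of the gene (orange squares), with 95% intervals as lines. Ratios that are 0 cannot be drawn on a log axis. In cluster 15 Atf5 stays at 2.56 and Atf4 at 2.08 without that cell, while Ddit3 moves from 2.87 to 0.873.

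The 2 deepest GS-KO cells of cluster 15 carried much of the signal. They had 82324 and 78042 UMIs, with 29 and 55 Atf5 UMIs and 10 and 14 Atf4 UMIs. The cell of 78042 UMIs also held 10 Ddit3 UMIs, 3 Sesn2 UMIs and 25 of the 28 Gdf15 UMIs, Gdf15 being a secreted stress hormone. In the other 20 GS-KO cells Atf5 stood at 232 CPM, a ratio of 2.18 (1.54 to 3.01), Atf4 at 91.4 CPM, a ratio of 1.87 (1.04 to 3.11), and Shmt2 at 128 CPM, a ratio of 1.83 (1.13 to 2.80). Ddit3 was then at 0.874, and Sesn2 and Gdf15 had 0 UMIs. Of the 7 measured genes 5 were then higher and 1 lower, where 22.9% of all genes were higher and 40.5% lower. Without the cell of 78042 UMIs alone, 5 were again higher and 1 lower, where 21% of all genes were higher and 34.6% lower. Leaving these cells out was chosen after their values were seen.

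GS-KO and control cells of cluster 15 also differed in genes of liver zonation. Ass1, a urea cycle enzyme of periportal hepatocytes, stood at 888 and 76.9 CPM, and Pck1, a gluconeogenic enzyme of the same zone, at 83.2 and 0.598 CPM. Slc1a2, a glutamate transporter found beside Glul around the central vein, stood at 228 and 857 CPM. Alb was at 8780.4 and 7886 CPM, and mitochondrial genes summed to 69331 and 71795 CPM. These genes were chosen after earlier results of these data were known. A change within cells and a different mix of hepatocytes in the 2 preparations cannot be told apart.

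Cluster 8 was read beside cluster 15. Its 10 leading genes include Pck1, Cps1 and Ass1, which are periportal, besides Mup and Serpina1 genes, and its Glul stood at 0 CPM in GS-KO and 121 CPM in control cells. It held 6 GS-KO and 69 control cells, and Atf5 stood at 332 and 322 CPM there, a ratio of 1.03 (0.602 to 1.66). Within the control library Atf5 was at 322 CPM (284 to 363) in cluster 8, 106 CPM (101 to 111) in cluster 15 and 63.3 CPM (57.5 to 69.6) in dividing hepatocyte-like cells, with no overlap of intervals. The interval of control cells of cluster 8 overlapped that of GS-KO cells of cluster 15, at 376 CPM (312 to 449). Atf4 in cluster 8 had 3 GS-KO UMIs at 55.3 CPM and 63 control UMIs at 76.9 CPM, a ratio of 0.720 (0.145 to 2.20). Of the 3 measured genes in cluster 8 none passed 1.5-fold, where 30.3% of genes were higher and 28.4% lower.

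Over clusters 15 and 8 together, 28 GS-KO and 395 control cells, Atf5 stood at 369.7 and 116 CPM, a ratio of 3.18 (2.66 to 3.78), and Atf4 at 111 and 50.1 CPM, a ratio of 2.21 (1.58 to 3.02). Of the 7 measured genes 6 were higher and 0 lower, with 22.2% of all genes higher and 29.2% lower. The median log2 ratio was 1.67 for the 7 genes and -0.02 for all genes. With every cell weighted equally the ratios over both clusters were 1.73 for Atf5 and 1.32 for Atf4. For Atf5 the mean was then 259 CPM in GS-KO and 150 CPM in control cells, so that the level was lower in GS-KO and higher in control cells than in summed UMIs.

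Cluster 12 gave a further reading in shallow cells. It was left unnamed because it met 2 hepatocyte markers, fewer than a name needed. Gnmt and Rgn, enzymes typical of hepatocytes, and glutathione transferases are among its leading genes. It held 40 GS-KO and 158 control cells with medians of 1409 and 1220 UMIs, so depth was close, and Glul stood at 283 and 2872 CPM. Atf5 had 21 GS-KO UMIs at 212 CPM and 16 control UMIs at 56.2 CPM, a ratio of 3.77 (1.88 to 7.74), and 2.95 without the cell that held most. Atf4 had 10 UMIs in each library, at 101 and 35.1 CPM, a ratio of 2.88 (1.07 to 7.70). Shmt2 stood at 60.7 and 59.8 CPM, a ratio of 1.01 (0.328 to 2.70).

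After thinning, 21.4% of 28 GS-KO cells (8.30 to 41.0) and 4% of 100 control cells (1.10 to 9.93) of cluster 12 kept an Atf5 UMI, and the unthinned shares were 27.5% and 8.86%. Both thinned shares exceed those in B-like cells. Of the 3 measured genes 2 were higher and 0 lower, where 20.8% of genes were higher and 25.3% lower. Mitochondrial genes summed to 101589 CPM in GS-KO and 70022 CPM in control cells of this cluster, and their part in the result was not tested.

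Cluster 7, another unnamed shallow cluster, gave no GS-KO UMI of its 2 measured genes. It met 4 macrophage markers and 4 of another class, with none among its 10 leading genes, so no name was given. The cluster held 30 GS-KO and 268 control cells with medians of 1412 and 1506 UMIs. Atf4 had 0 UMIs in GS-KO and 39 UMIs in control cells, at 64.5 CPM, which with 3 counts as the floor is at least 1.499-fold lower. Ddit3 had 0 and 34 UMIs, at 56.2 CPM in control cells, at least 1.31-fold lower. Of 2 measured genes 0 were higher and 2 were counted as lower, where 19.4% of all genes were higher and 28.2% lower. Both were counted because 0 UMIs give a ratio of 0, while both bounds lie under 1.5-fold.

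Other genes of the pathway were counted from lists in cluster 15. The counts are read against the shares of all genes in cluster 15, which were 22.2% higher and 31.1% lower over all cells, 21% and 34.6% without the cell of 78042 UMIs, and 22.9% and 40.5% without the 2 deepest cells. Of 18 measured other targets and partners of ATF4, 11 were higher and 3 lower, and without the cell of 78042 UMIs 9 were higher and 1 lower. Without the 2 deepest cells 11 were higher and 2 lower. Cth, which makes cysteine from cystathionine, stood at 111 and 31.4 CPM, a ratio of 3.53 (2.45 to 4.95), and 3.69 without the 2 deepest cells. Sqstm1, an autophagy receptor, stood at 444 and 178 CPM. Nfe2l2, the oxidative stress factor NRF2, stood at 200.3 and 80.2 CPM. Ndrg1, a hypoxia-responsive gene, was lower at 33.9 and 63.6 CPM.

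Of 16 eIF2α kinases and regulators 7 were higher and 5 lower, but 5 and 8 without the cell of 78042 UMIs, and 5 and 7 without the 2 deepest cells. Their median log2 ratio was 0.23 over all cells, -0.47 without that cell and -0.27 without the 2 deepest, so the direction of this list rests on 1 cell. Its member Eif4ebp1, a translation repressor that ATF4 also activates, stood at 413 and 189.9 CPM, a ratio of 2.18. Of 20 aminoacyl-tRNA synthetases, which charge tRNAs and include many ATF4 targets, 10 were higher and 3 lower, but 7 and 3 without the cell of 78042 UMIs, and 8 and 6 without the 2 deepest cells. Sars stood at 136 and 58.0 CPM, Hars at 58.6 and 22.3 CPM, and Nars at 182 and 89.9 CPM, while Aars was lower at 102 and 166 CPM. Their median log2 ratio was 0.62 over all cells, 0.09 without the cell of 78042 UMIs and 0.07 without the 2 deepest, beside -0.04, -0.105 and -0.20 for all genes.

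Of 8 amino acid transporters 2 were higher and 3 lower, but 0 and 3 without the cell of 78042 UMIs, and 0 and 6 without the 2 deepest cells, a setting in which more of all genes were lower as well. Slc3a2, the heavy chain of several transporters, stood at 176 and 86.9 CPM, and 1 GS-KO cell held 57.9% of the GS-KO UMIs. Slc1a4, a carrier of serine and alanine, had 3 GS-KO UMIs at 9.25 CPM and stood at 44.2 CPM in control cells, a ratio of 0.209 (0.0430 to 0.613). Of 15 serine, glycine and folate enzymes 5 were higher and 2 lower, and 7 and 2 under either of those settings. Gnmt, which methylates glycine, stood at 949 and 85.8 CPM and Aldh1l1, a cytosolic folate enzyme, at 289.7 and 121 CPM.

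The genes of the other stress branches were counted beside them. Of 20 endoplasmic reticulum stress genes controlled by IRE1 and ATF6, 0 were higher and 8 lower in cluster 15, among them Calr at 348 and 594 CPM, Hsp90b1 at 327 and 544 CPM and Manf at 154 and 274 CPM, all chaperones or folding factors of that compartment. The count lower was also 8 without the cell of 78042 UMIs and was 12 without the 2 deepest cells, where 34.6% and 40.5% of all genes were lower, against 31.1% over all cells. Of 11 mitochondrial stress genes 6 were higher and 0 lower, but 2 and 2 without the cell of 78042 UMIs, and 5 and 2 without the 2 deepest cells. Of 25 dissociation, early response and heat shock genes 5 were higher and 6 lower, and their sum was 4506 CPM in GS-KO and 4661 CPM in control cells. The sums were close in the 2 libraries in cluster 15, while single genes moved both ways. The early response gene Jun stood at 114 and 52.9 CPM and the heat shock gene Hspa1b at 15.4 and 48.9 CPM. The part of handling in the result was not tested.

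**Figure D3:**
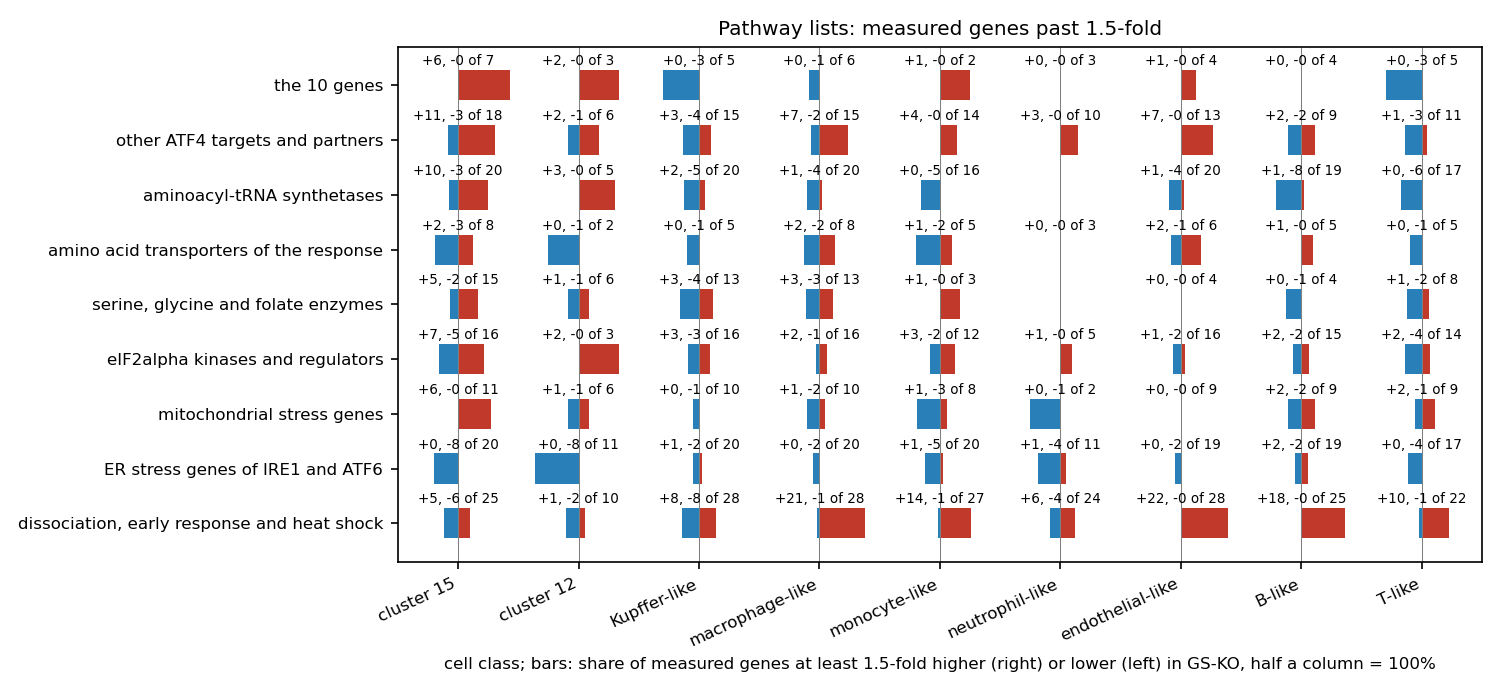
Share of the measured genes of each list that were at least 1.5-fold higher (red, right) or lower (blue, left) in GS-KO cells, by cluster or cell class, with the counts printed as higher, lower and measured, and nothing drawn where no gene was measured or passed. The 10 genes show 6 higher of 7 in cluster 15 and 2 of 3 in cluster 12, while dissociation and early response genes are higher in macrophage-like, endothelial-like and B-like cells.

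In immune and endothelial cells, which AAV8 reaches little, Atf4 in summed UMIs was closer between the libraries. Its ratio lay between 0.897 and 1.43 in the Kupffer-like, macrophage-like, monocyte-like, neutrophil-like, endothelial-like, B-like and T-like classes, and every interval included 1. Atf4 left its interval in endothelial-like cells by the mean over cells (ratio 0.643) and, after thinning, in B-like (1.54) and T-like cells (5.23). In macrophage-like cells, 57 GS-KO and 804 control cells of similar depth, it stood at 75.3 CPM (58.5 to 95.4) and 68.3 CPM (64.1 to 72.6), a ratio of 1.10 (0.850 to 1.41). That interval leaves out the ratio of 2.46 seen in cluster 15 but overlaps the matched-depth interval there, 1.01 to 3.22 around 1.87. With every cell weighted equally, Atf4 stood at 98.19 and 76.05 CPM in macrophage-like cells. The hepatocyte-like ratio was then 1.32, and 1.87 in cluster 15 alone. Summed ratios were 1.91, 0.947 and 0.581 in macrophage-like clusters 2, 5 and 11, and 1.47 and 1.88 in T-like clusters 10 and 16. The contrast with cluster 15 thus depends on the weighting and the clusters compared. No test of the difference between cell types was possible with 1 mouse per group.

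**Figure D4:**
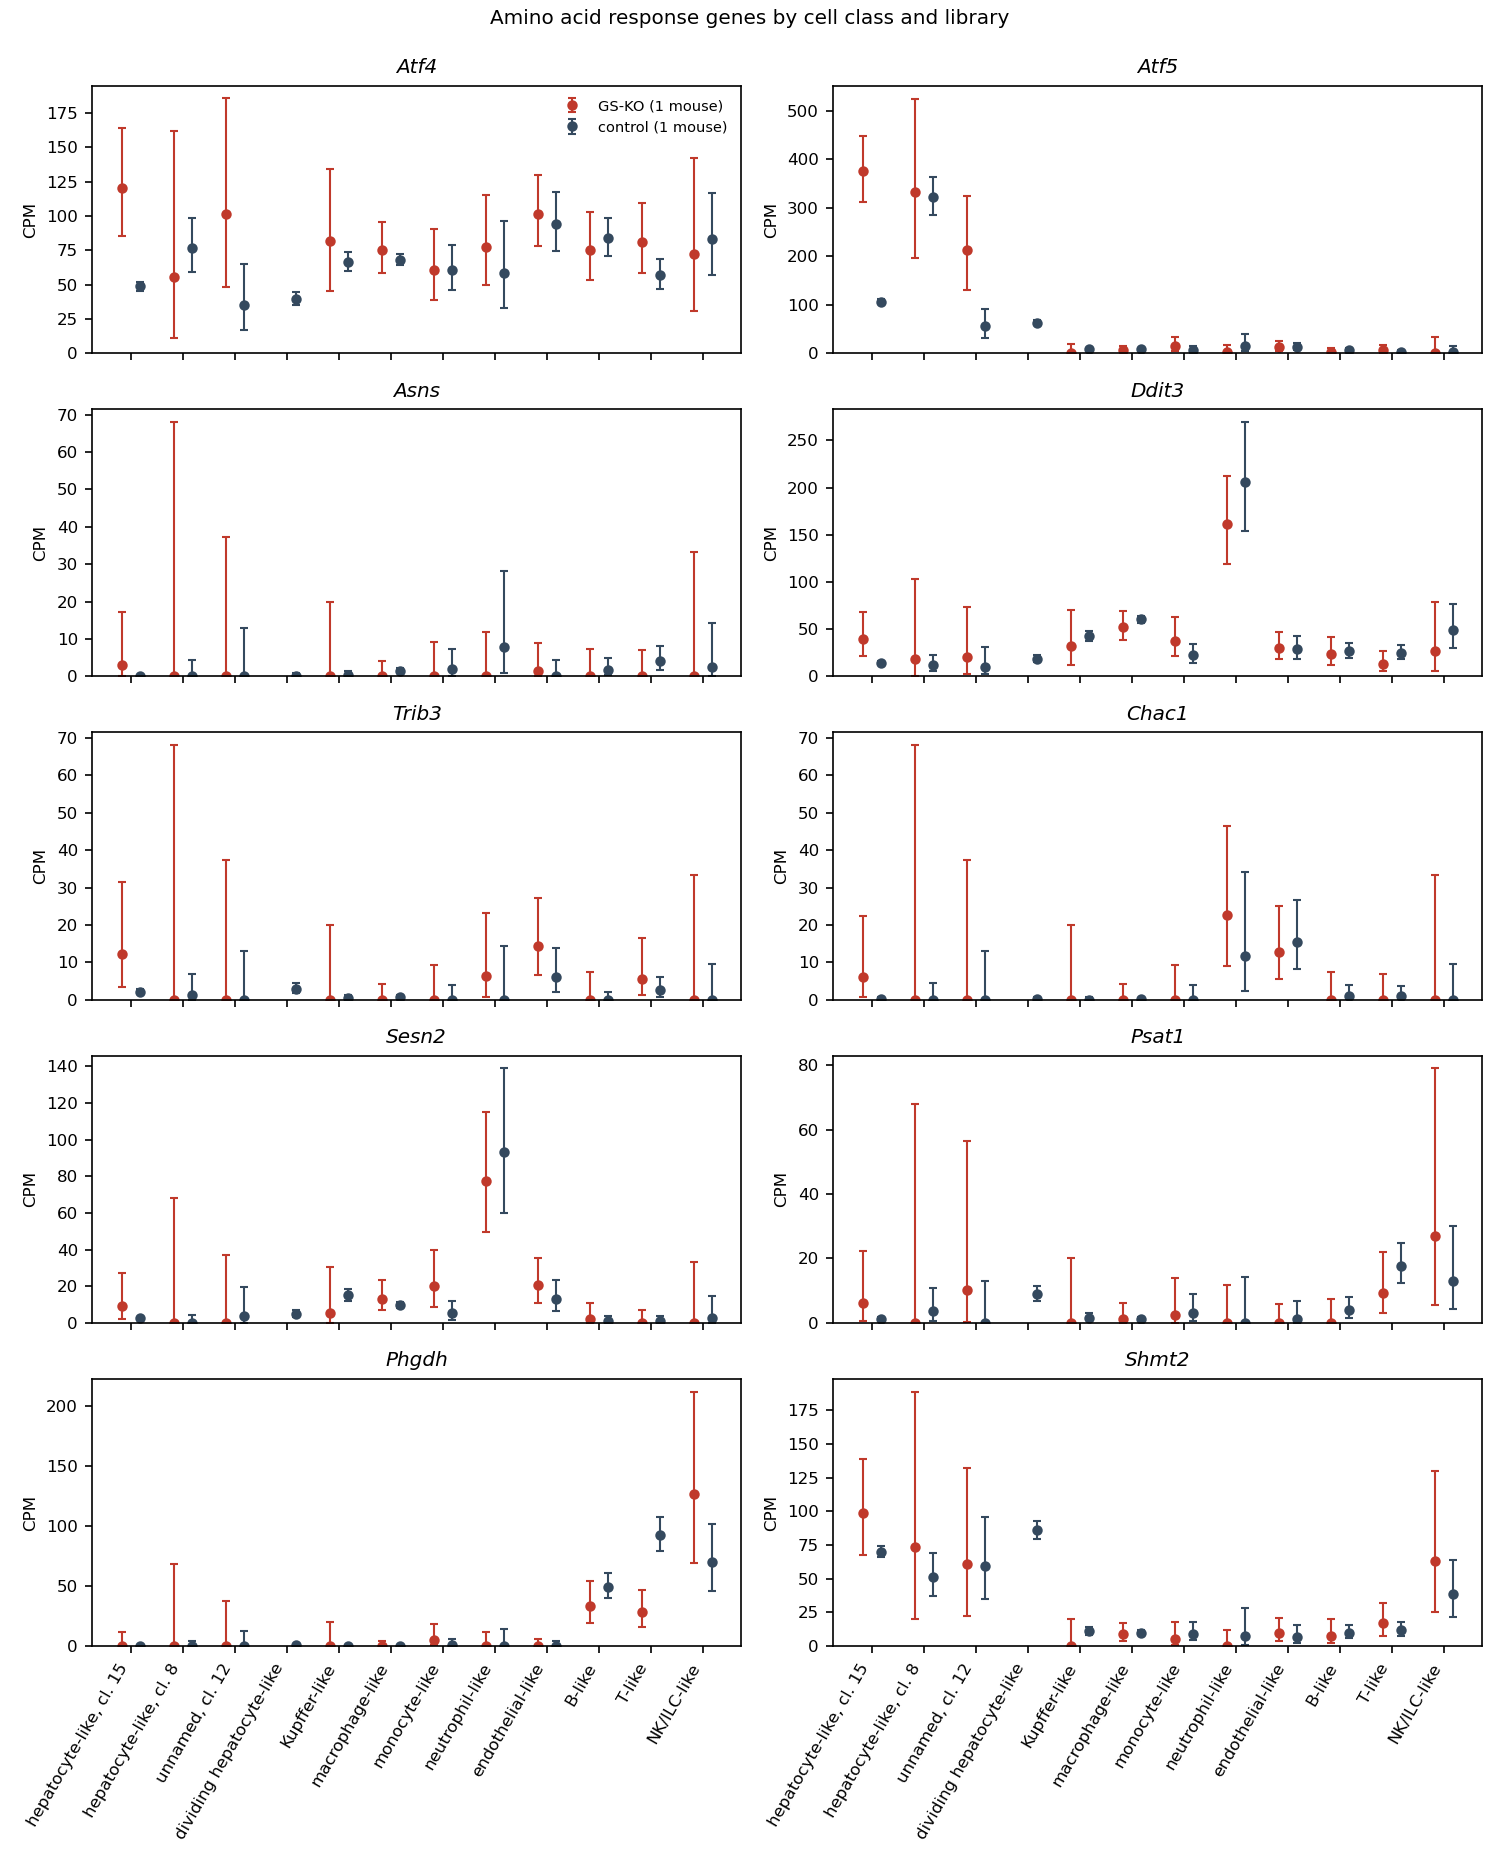
Level of each of the 10 genes in CPM by cell class, GS-KO in red and control in dark blue, 1 mouse each, with 95% Poisson intervals as bars; dividing hepatocyte-like cells are drawn for the control only. Atf5 is near 0 outside hepatocyte-like and cluster 12 cells, Ddit3 and Sesn2 are highest in neutrophil-like cells, and Phgdh in NK/ILC-like and T-like cells and, in lower amounts, in B-like cells.

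The 10 genes differed in the classes where they were counted most. Atf4 was found in every class, at 39.7 to 94.4 CPM in the control classes drawn other than cluster 12, and its intervals overlapped between most neighbours. Atf5 and Shmt2 were genes of hepatocyte-like cells, and outside these and cluster 12 Atf5 stood at 15.6 CPM or less in the classes drawn. Secreted and abundant hepatocyte genes summed to 188 and 1909 CPM in B-like cells and to 83277 and 93716 CPM in cluster 15, and what part of the low Atf5 counts elsewhere is free hepatocyte RNA was not tested. Shmt2 in dividing hepatocyte-like cells of the control stood at 86.0 CPM (79.2 to 93.3), above the 70.1 CPM (66.1 to 74.2) of cluster 15. Among the other classes drawn Shmt2 was highest in NK/ILC-like cells, at 63.1 and 38.8 CPM.

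Ddit3 and Sesn2 were highest in neutrophil-like cells, short-lived granulocytes of which there were 103 GS-KO and 100 control cells. Ddit3 stood at 161 CPM (119 to 212) and 206 CPM (154 to 269), a ratio of 0.781 (0.520 to 1.17), and Sesn2 at 77.3 and 93.3 CPM, a ratio of 0.828 (0.450 to 1.52). After thinning, 18.4% of 103 GS-KO and 20.6% of 97 control neutrophil-like cells kept a Ddit3 UMI, against 1.69% and 2.64% in B-like cells. The unthinned shares were 33.0% and 39.0% in neutrophil-like cells and 9.17% in B-like cells of either library. Chac1 had 7 and 3 UMIs in neutrophil-like cells, too few to compare. Of the 3 measured genes 0 were higher or lower there, where 13.2% of genes were higher and 21% lower.

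In macrophage-like cells 6 genes were measured and 0 were higher and 1 lower, where 10.9% of genes were higher and 17.9% lower. Ddit3 stood at 52.0 and 60.4 CPM, a ratio of 0.861 (0.628 to 1.15), Sesn2 at 13.3 and 9.86 CPM, a ratio of 1.35 (0.681 to 2.43), and Shmt2 at 8.86 and 9.92 CPM. The lower one, Asns, had 0 UMIs in 57 GS-KO cells and 22 UMIs in 804 control cells, which is under what 3 counts allow and gives no fold. By cluster, Atf4 stood at 125 and 65.5 CPM in cluster 2, a ratio of 1.91 (1.23 to 2.84) and 1.55 without the cell that held most, at 66.2 and 69.9 CPM in cluster 5, and at 38.7 and 66.5 CPM in cluster 11.

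Although none of the measured genes was higher in GS-KO macrophage-like cells, several other targets of the pathway were. Of 15 measured, 7 were higher and 2 lower, led by Ddit4, an mTORC1 inhibitor induced by many stresses, at 76.4 and 9.12 CPM, a ratio of 8.38 (6.18 to 11.3). Jdp2, a basic leucine zipper factor, stood at 123 and 35.9 CPM, and Gdf15 at 271 and 103 CPM, where 1 GS-KO cell held 36.3% of the GS-KO UMIs. Slc38a2, a neutral amino acid carrier that takes up glutamine, stood at 79.7 and 43.2 CPM, and Ppp1r15a, which restores eIF2α to its unphosphorylated state, at 59.8 and 28.9 CPM. In the same cells 21 of 28 dissociation and early response genes were higher and 1 lower, with sums of 16014 and 8208 CPM, Fos at 1811 and 446 CPM and Hspa1b at 695 and 82.9 CPM. Their part in the result was not tested.

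Kupffer-like cells numbered 10 and 287. Atf4 stood at 81.4 and 66.5 CPM, a ratio of 1.22 (0.678 to 2.05), and Ddit3 at 32.6 and 42.3 CPM, a ratio of 0.769 (0.279 to 1.70). Of 5 measured genes 0 were higher and 3 lower, where 15.4% of genes were higher and 31.9% lower. Of those 3, Atf5 and Shmt2 had 0 UMIs in GS-KO cells and 46 and 61 in control cells, which is within what 3 counts allow, and Sesn2 had 1 and 81 UMIs, a ratio of 0.362 (0.00907 to 2.08). None of the 3 was detectably different at this depth.

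In endothelial-like cells, 88 and 127 cells, Atf4 was at 101.5 and 94.4 CPM, a ratio of 1.08 (0.761 to 1.52), and Ddit3 at 30.1 and 28.7 CPM. Trib3 had 9 and 5 UMIs, a ratio of 2.39 (0.719 to 9.08), and Chac1 8 and 13 UMIs, a ratio of 0.817 (0.294 to 2.13). Of 4 measured genes, 1 was higher, Sesn2 at 20.6 and 13.1 CPM with a ratio of 1.57 (0.649 to 3.87), and 0 were lower, where 14% of genes were higher and 16.4% lower. Of 13 other ATF4 targets 7 were higher and 0 lower, among them Atf3, an early stress factor, at 124 and 14.3 CPM, where 1 GS-KO cell held 59.0% of the GS-KO UMIs. Slc38a2 stood at 541 and 238 CPM, a ratio of 2.28 (1.91 to 2.72). Dissociation and early response genes summed to 17529 and 8285 CPM there, and their part in the result was not tested.

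In monocyte-like cells, 51 and 108 cells, Atf4 stood at 60.7 and 60.8 CPM, a ratio of 0.997 (0.593 to 1.63). Ddit3, 1 of 2 measured genes, was the only one past 1.5-fold, at 37.9 and 22.7 CPM with a ratio of 1.67 (0.806 to 3.37), where 11.8% of genes were higher and 17.2% lower. Sesn2 had 8 and 5 UMIs, a ratio of 3.92 (1.13 to 15.2), under the minimum for a comparison. Dissociation and early response genes summed to 18382 and 11693 CPM, and their part in the result was not tested.

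Phgdh was counted mainly in lymphocytes. In NK/ILC-like cells it stood at 126 CPM (68.9 to 212) in 18 GS-KO cells and 69.9 CPM (46.1 to 102) in 67 control cells. In T-like cells it stood at 28.2 CPM (15.8 to 46.6) and 92.6 CPM (79.5 to 107), and in B-like cells at 33.6 CPM (19.6 to 53.8) and 49.4 CPM (39.6 to 60.7). It had 0 UMIs in GS-KO and 1 UMI in control macrophage-like cells and 0 in endothelial-like cells of both libraries.

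The T-like difference in Phgdh was the largest among the compared immune classes, with 15 GS-KO and 178 control UMIs in 84 and 273 cells, a ratio of 0.305 (0.167 to 0.517). The ratio left that interval at 0.582 with a mitochondrial limit of 10%, 0.558 at Leiden resolution 0.5 and 0.537 after thinning. Its size therefore depends on how cells are chosen, clustered and counted. The T-like class joins cluster 10, with cytotoxic genes such as Gzmb, and cluster 16, with naive T cell genes such as Lef1 and Tcf7. In cluster 10 Phgdh stood at 39.0 and 138 CPM, a ratio of 0.283 (0.112 to 0.598), and in cluster 16 at 22.8 and 40.4 CPM, a ratio of 0.564 (0.226 to 1.23). The GS-KO library had 21 cells of cluster 10 and 63 of cluster 16, against 98 and 175 in the control library, so the mix differed as well.

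After thinning, 2.56% of 78 GS-KO and 4.78% of 272 control T-like cells kept a Phgdh UMI, and the unthinned shares were 14.3% and 30.4%. Psat1, the next enzyme, stood at 9.42 and 17.7 CPM, a ratio of 0.532 (0.162 to 1.37), and Ddit3 at 13.2 and 24.98 CPM, a ratio of 0.528 (0.201 to 1.17). Of 5 measured genes in T-like cells 0 were higher and 3 lower, where 7.23% of genes were higher and 28.5% lower. Tyms, which makes thymidylate for DNA synthesis, was lower in the same cells, at 11.3 and 58.8 CPM, and its part in the Phgdh difference was not tested.

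Atf4 in T-like cells stood at 81.0 and 56.7 CPM, a ratio of 1.43 (0.979 to 2.05). In cluster 16 alone it was at 65.4 and 34.8 CPM, a ratio of 1.88 (1.05 to 3.33), and in cluster 10 at 111 and 75.7 CPM, a ratio of 1.47 (0.852 to 2.43). In B-like cells, 120 and 469 cells, it stood at 75.1 and 83.8 CPM, a ratio of 0.897 (0.611 to 1.29). Of 4 measured genes there 0 were higher or lower, where 6.65% of genes were higher and 26.1% lower, and Phgdh had a ratio of 0.681 (0.380 to 1.15).

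Asns was counted mostly in a few dividing cells. Of its 98 UMIs, 45 lay in GS-KO cells of cluster 14, an unnamed cluster of dividing cells with 11 GS-KO and 76 control cells, and 42 of those lay in 2 cells with 29 and 13 UMIs. These cells had 82800 and 63385 UMIs, 18 and 26 UMIs of the division gene Mki67, and 0 of both Ptprc, which marks blood cells, and Alb, which marks hepatocytes. They also held 5 and 2 Phgdh UMIs. Control cells of cluster 14 held 10 Asns UMIs, and clusters 2, 5 and 10 of the control 8 each. What cell type these 2 cells are was not settled.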

How the data were processed

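Single-cell RNA was counted in 2 mouse liver libraries, 1 mouse each. The authors deposited matrices of raw UMI counts per gene and barcode, made with Cell Ranger on mm10 per the submitters' processing notes. The file headers give software version 3.1.0. A 3′ kit was used per the labels, so each transcript is counted near its end. The GS-KO library had 1366 barcodes and 8805330 UMIs, and the control library 5074 and 64770011. The labels call the chemistry 3PrimeV2 and in 1 place name nuclei, which was not settled.

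Scrublet removed 7 GS-KO and 24 control doublets at an expected rate of 5%. The cells left were clustered together, with 10000 UMIs as the common scale, 2000 variable genes, 30 principal components, 15 neighbours and Leiden resolution 1. A class name needed at least 3 markers that were 2 times higher in the cluster than in all other cells and detected in 20% of its cells. Names rest on RNA alone and end in "-like". UMIs were summed per class and library as CPM with exact Poisson 95% intervals. Ratios carry conditional binomial intervals, and shares Clopper-Pearson intervals. All cover counting error only. Where 0 cells held a UMI, the share said to be allowed is 3 divided by the number of cells, not a Clopper-Pearson bound. With 1 mouse per group there was no test. The ratio intervals were run on simulated Poisson counts, which hold no clumping of UMIs in single cells. That run therefore cannot show how well the intervals hold for these cells. Cells were thinned to 1000 UMIs for shares of cells. Median log2 ratios used a prior count of 0.5. Classes with at least 30 cells in each library were compared, and besides them Kupffer-like cells and the hepatocyte-like clusters.

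The 10 genes and all lists were chosen with earlier results of these data known. Genes of other lists were named where the interval bound nearest 1 was farthest from it, at most 3 each way per list and class, with 50 UMIs or more. Gene positions are from GENCODE M21. Clustering used scanpy 1.11.5 with igraph 0.11.9 and scikit-learn 1.9.0, and intervals used scipy 1.17.1, all under Python 3.11.15 with numpy 2.4.6. Alternatives varied the cell limits, doublet calls, clustering, weighting, depth, scaling, minimum and fold.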

Additional observations from a re-analysis of the deposited data

Results flagged for a closer look

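Ddit3 was higher in GS-KO barcodes that were not used because mitochondrial genes exceeded 20% of their UMIs, 694 in the GS-KO and 1799 in the control library. In these barcodes, which mix all cell types, it had 27 GS-KO and 82 control UMIs, or 64.3 and 24.6 CPM of non-mitochondrial UMIs, a ratio of 2.62 (95% interval 1.63 to 4.09). It drew attention as a signal above the control level in data outside the comparisons. In the same barcodes Atf4 stood at 76.2 and 77.6 CPM, a ratio of 0.982 (0.658 to 1.42), Atf5 at 148 and 123 CPM, a ratio of 1.20 (0.903 to 1.57), and Glul at 83.3 and 2892 CPM. On 20 UMIs or fewer, Chac1 had 5 and 3 UMIs, a ratio of 13.2 (2.58 to 85.3). Psat1 had 6 and 11 UMIs, a ratio of 4.34 (1.32 to 12.8), and Asns 3 and 2 UMIs, a ratio of 11.9 (1.37 to 143). The intervals of Trib3, Sesn2, Phgdh and Shmt2 included 1. What share of all genes had intervals above 1 in these barcodes was not counted, so nothing is read from the number of these genes. The mix of cell types in these barcodes was not resolved, and its part in these ratios was not tested.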

How the results depend on the processing

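Each group is 1 mouse, so no mouse could be left out. No paired analysis was possible because each group has 1 library. Counts below are numbers of the 10 genes at least 1.5-fold higher or lower in GS-KO cells. The share of all genes past that fold was not counted under these settings. The counts therefore show only how the reported counts moved, and none is read as a result about the 10 genes. In all, 164 counts over classes and settings stayed within 1.5 times the value reported and 60 moved. Of the medians, 109 stayed between the medians of the lower and upper interval bounds of the measured genes, and 3 turned. Of the ratios, 358 stayed within their interval, 28 left it and 17 turned. A median or ratio was counted as turned only where its reported value was past 1.5-fold and its direction changed. The hepatocyte-like Atf5 ratio lay between 1.73 and 3.60 over the settings tried. That range covers different sets of GS-KO cells. The larger hepatocyte-like cluster held 22 of them as reported, but 5 at a mitochondrial limit of 10% and 8 at 50%. It held 8 with at least 1000 UMIs per cell, 7 at Leiden resolution 2, 34 with doublets kept and 63 at Leiden resolution 0.5.

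With a mitochondrial limit of 10%, the hepatocyte-like count lower was 1, the macrophage-like count higher 2, the endothelial-like 0 and the T-like 1; Sesn2 turned to 0 in hepatocyte-like and 1.05 in Kupffer-like cells and Asns to 1.47 in macrophage-like cells. With a limit of 50%, the counts lower were 1 in hepatocyte-like and 1 in Kupffer-like cells, the monocyte-like count higher 0 and Sesn2 in hepatocyte-like cells 0. With at least 1000 UMIs per cell, hepatocyte-like cells had 3 higher and 1 lower, monocyte-like and endothelial-like cells 0 higher, and Sesn2 in hepatocyte-like cells was 0. With doublets kept, Kupffer-like cells had 2 higher and a median log2 ratio of 0.10, and macrophage-like cells 0 lower. At Leiden resolution 0.5, 1 gene was lower in Kupffer-like and 1 higher in T-like cells, and at resolution 2, 1 was higher in T-like cells. With the mean over cells, hepatocyte-like cells had 1 lower and Sesn2 at 0.651, endothelial-like cells 2 higher and 1 lower, B-like cells 1 lower and T-like cells 2 higher.

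With cells thinned to 1000 UMIs before summing, hepatocyte-like cells had 3 higher and 3 lower with a median of -0.0397, and Atf4, Trib3 and Sesn2 at 0; Kupffer-like cells had 1 higher, macrophage-like cells 2, monocyte-like cells 0 with Ddit3 at 0.736, neutrophil-like cells 1 lower, endothelial-like cells 2 higher and 1 lower, B-like cells 1 higher and 2 lower, and T-like cells 2 higher with a median of 0.18 and Psat1 at 1.16. With cells of 2000 to 40000 UMIs, a setting chosen after seeing the data, hepatocyte-like cells had 2 lower with Sesn2 and Psat1 at 0, endothelial-like cells 1 lower, B-like cells 2 lower and T-like cells 1 higher. Without the cell with the most UMIs of the gene, hepatocyte-like cells had 1 lower with Ddit3 at 0.997 and Sesn2 at 0, monocyte-like cells 0 higher and B-like cells 2 lower. Without the 2 deepest GS-KO cells of cluster 15, also chosen after seeing the data, Ddit3 was at 0.874 and Sesn2 at 0 there.

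With the total freed of mitochondrial, ribosomal, haemoglobin and hepatocyte genes, T-like cells had 2 higher. With a minimum of 1 UMI the counts lower were 1 in hepatocyte-like, 7 in Kupffer-like, 4 in macrophage-like, 2 in monocyte-like, 3 in neutrophil-like, 1 in endothelial-like, 4 in B-like and 6 in T-like cells, and the counts higher 4 in monocyte-like, 2 in neutrophil-like, 3 in endothelial-like, 1 in B-like and 2 in T-like cells. Under the minimum of 1 UMI, 1 UMI in 1 library and 0 in the other was enough for a call. With a minimum of 50 UMIs, hepatocyte-like cells had 3 higher, monocyte-like and endothelial-like cells 0 higher and macrophage-like cells 0 lower. With a fold of 2, monocyte-like and endothelial-like cells had 0 higher and T-like cells 1 lower. The minimum and the thinning change how many molecules remain; for the other settings the cause was not tested. Depth in the 22 GS-KO cells of cluster 15 limits every gene other than Atf5, Atf4 and Shmt2.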

Other observations

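Genes most like the 3 best counted genes were ranked over 17 sums, each a cell class in 1 library with at least 20 cells, by Pearson correlation of log2(CPM + 10) among 8487 genes. The sums of a class share its cell type, so these values describe where genes are expressed. Atf5 was most like Kng2, a kininogen, Tat, the tyrosine aminotransferase of hepatocytes, and Aspdh, with r of 0.99, 0.97 and 0.97. Shmt2 was most like Tecr, an enzyme of very long chain fatty acids, Dsp, a desmosome protein, and Slc35e2, with r of 0.96, 0.94 and 0.94. Atf4, found in every class, had no gene as close: Pfkl, the liver form of phosphofructokinase, Btbd7 and Got1, an aspartate aminotransferase, had r of 0.76, 0.73 and 0.71.

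Phgdh also differed in cluster 14, the unnamed dividing cells. It had 37 UMIs in 11 GS-KO cells, or 118 CPM (83.3 to 163), and 8 UMIs in 76 control cells, or 4.13 CPM (1.78 to 8.14). A single GS-KO cell held 54.1% of the GS-KO UMIs. The cell types among the dividing cells were not resolved, and their part in this difference was not tested.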
